A study of Rattus norvegicus with 4 samples.

Results

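The cells were NR8383, a continuous line of rat alveolar macrophages that was first grown from cells washed out of the lung. The genes described here are 38 genes of glucose breakdown and of the response to low oxygen. They were taken as a fixed list of gene symbols that covers glucose uptake, the enzymes of glycolysis, lactate and pyruvate handling, oxygen sensing and targets of the hypoxia response. A probe was assigned to a gene when its accession belonged to that gene in RefSeq, and 37 of the 38 genes had a probe, out of 16506 named genes measured. They were covered by 64 of the array's 45598 probes, and the prolyl hydroxylase Egln1 had no matching probe and is not analysed here. All samples belong to a single group of 4 biological replicates, titled FBS control, and no second condition was compared. They were wild-type cells of this line incubated for 4 h in DMEM with 10% fetal bovine serum. The labels also give 15% serum for growth and 48 h for seeding. The cells had been passaged 20 times, grew partly attached and partly in suspension, and received no other agent, per the labels. The letters ALI in the labels are not spelled out and are not interpreted here.

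Glycolysis splits glucose into pyruvate in the cytosol, and lactate dehydrogenase turns pyruvate into lactate when it is not sent to the mitochondria. The pathway is controlled at glucose uptake, at hexokinase, at phosphofructokinase and at pyruvate kinase, and macrophages rely on it during activation. When oxygen is low, the prolyl hydroxylases no longer mark the transcription factor subunit HIF-1α for destruction through the protein Vhl. HIF-1 then raises many glycolytic genes together with genes for blood vessel growth, mitophagy and pH control. HIF-1α is regulated mainly as a protein, which an array of transcripts does not measure.

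Most of the glycolytic genes were expressed, and the genes not detected were single isoenzymes, transporters and some genes of the hypoxia response. Of the 37 measured genes, 29 (78.4%) were detected, meaning that most spots of at least 1 probe exceeded background clearly on every one of the 4 arrays by the scanner software's flag. Over all named genes the share was 53.1%. Among the genes of glucose, lactate and pyruvate handling 23 of 27 (85.2%) were detected. Among those of oxygen sensing and hypoxia targets it was 6 of 10 (60%), near the share of all named genes. The 8 genes measured but not detected were Slc2a3, Hk1, Pfkm, Slc16a3, Epas1, Egln3, Vegfa and Car9. Of the 37 measured genes 5, all among these 8, were well above background on no array. Over all 16506 named genes that share was 34.4%.

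HIF-1 binds a short core that can be written as ACGTG or GCGTG, and these letters were sought on both strands in the 250 bases before the RefSeq start of each gene (GRCr8 assembly). Promoters were found for 35 of the 38 genes. Either core occurred in 20 of the 27 promoters of detected genes (74.1%) and in 2 of the other 8 (25%), which include the unmeasured Egln1. For comparison, it occurred in 55.9% of the promoters of all 7319 detected named genes with a promoter in the table and in 34% of those of the 6180 not detected. A match to 5 letters is a description of the sequence and not a binding site, and windows with no match, such as those of Hk2 and Vegfa, hold only the absence of these letters there. The promoters below are shown because each held 4 matches, 1 fewer than Pdk3 at the top of the list, and because the genes are the glucose transporter, the lactate enzyme and a pair of hypoxia targets described in the results. Their positions are chr5:138002272-138002521 (plus strand) for Slc2a1, chr1:106507842-106508091 (plus strand) for Ldha, chr1:203154963-203155212 (minus strand) for Bnip3 and chr16:53001257-53001506 (plus strand) for Ankrd37. Capitals mark either core and its reverse complement, and the palindrome CACGTG counts as 2 overlapping matches.

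Slc2a1: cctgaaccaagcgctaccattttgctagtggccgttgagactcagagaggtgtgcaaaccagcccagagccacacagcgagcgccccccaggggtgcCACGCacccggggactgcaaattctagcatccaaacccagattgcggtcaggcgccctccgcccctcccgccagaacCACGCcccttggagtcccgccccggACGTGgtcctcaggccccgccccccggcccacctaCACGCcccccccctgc
Ldha: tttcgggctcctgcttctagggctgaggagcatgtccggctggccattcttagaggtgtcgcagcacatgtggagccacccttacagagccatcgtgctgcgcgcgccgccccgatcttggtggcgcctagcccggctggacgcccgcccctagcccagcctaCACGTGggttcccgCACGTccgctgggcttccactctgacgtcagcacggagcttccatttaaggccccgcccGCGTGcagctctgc
Bnip3: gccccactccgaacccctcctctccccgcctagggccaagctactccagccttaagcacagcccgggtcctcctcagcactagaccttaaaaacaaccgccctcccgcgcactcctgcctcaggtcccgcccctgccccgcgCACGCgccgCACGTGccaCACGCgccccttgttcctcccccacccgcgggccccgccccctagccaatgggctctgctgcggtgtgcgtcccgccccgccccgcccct
Ankrd37: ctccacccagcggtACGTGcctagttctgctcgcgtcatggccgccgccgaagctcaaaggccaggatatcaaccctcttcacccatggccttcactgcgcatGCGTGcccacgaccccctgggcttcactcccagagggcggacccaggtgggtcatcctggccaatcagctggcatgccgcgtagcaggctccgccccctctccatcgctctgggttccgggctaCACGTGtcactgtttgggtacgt

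The palindrome occurs in the promoters of Ldha, Bnip3 and Ankrd37, and in Ldha and Bnip3 a further core lies a few bases after it. As means of their detected probes, Ldha and Bnip3 read highest on replicate 1, and Slc2a1 and Ankrd37 read lowest there. For Ldha, 1 probe was lower there than on the mean of the other arrays and 2 were higher. Any link between matches and levels was not tested.

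The arrays differed in brightness. The 75th percentile of signal was 83.4, 112, 126 and 167 on replicates 1 to 4, and the share of the 58717 non-control spots flagged above background was 50.9%, 53.9%, 56.5% and 58.9%. Replicate 1 was the dimmest array and stood apart from the rest for many genes. Levels below are log2 signal minus the array's own 75th percentile, as the mean ± SD of 4 arrays, so 0 marks a probe as bright as that percentile. Levels of different genes rest on different probes and are not set against each other. Detected probes of the same gene also differed in mean level, by 1.20 for Bnip3 up to 7.55 for Pkm. The gap was 2.84 for Ldha, 2.76 for Pdha1 and 2.26 for Eno2. The SD of 4 arrays does not cover such gaps. The number of arrays limits the precision, and fewer cells of a kind cannot be told apart from less RNA per cell. As a check of the cell type, 10 of 11 measured macrophage markers were detected, among them Cd68 at 7.44 ± 0.17, and the exception was Marco, well above background on 1 array. None of the 6 epithelial, 4 fibroblast, 3 neutrophil, 3 T and B cell and 1 erythroid markers measured was detected, although Sftpc and Cd3g were well above background on 2 arrays each and Col1a1 on 1.

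**Figure D1:**
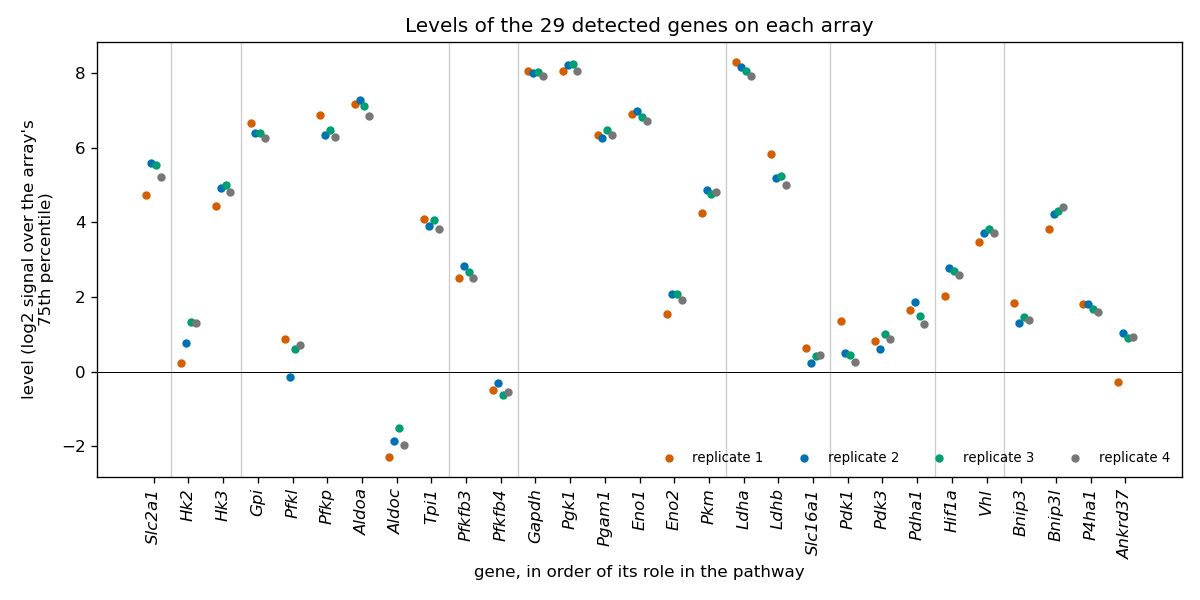
Level of each of the 29 detected genes (log2 signal over the array's 75th percentile, vertical axis) on replicates 1 to 4, in the order of their roles with grey lines between roles. Each point is 1 array. For most genes the 4 points lie close together, and replicate 1 lies clearly below the others for Ankrd37 and above them for Pdk1. Heights of different genes are not comparable as amounts.

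Glucose enters macrophages mainly through the transporter Slc2a1 (GLUT1). It was detected by a single probe and read 4.74, 5.58, 5.53 and 5.22 on replicates 1 to 4 (5.27 ± 0.39, n = 4). Replicate 1 lay 0.71 below the mean of the other arrays, which spanned 0.37 among themselves. The second transporter, Slc2a3 (GLUT3), a high-affinity form known from neurons, was not detected. Its probe on 10 spots had no spot well above background on any array, with signals of 2.75, 2.55, 3.35 and 3.64. The other Slc2a3 probe, on 1 spot, gave 2.90 and 3.06 on replicates 1 and 2 but 23.6 and 49.2 on replicates 3 and 4, where it was well above background. The lowest signal that the scanner software called well above background was between 9.17 and 13.2 on the 4 arrays, so the probes of Slc2a3 disagreed on replicates 3 and 4.

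Hexokinases trap glucose in the cell as glucose 6-phosphate, and the array showed 2 of the 3 forms. Hk2, the insulin- and hypoxia-responsive form bound to mitochondria, read 0.23, 0.78, 1.32 and 1.30 (0.91 ± 0.52, n = 4). Hk3, the form found mostly in myeloid cells, read 4.44, 4.91, 5.00 and 4.80 (4.79 ± 0.25, n = 4). Both were lowest on replicate 1. The difference for Hk2 was 0.90 from the mean of the others, yet its replicates 2 to 4 also spanned 0.54, and its SD exceeded that of 90.8% of detected genes. Hk1, the widespread housekeeping form, was represented by 1 spot with signals of 2.64, 2.56, 2.68 and 3.32, well above background on no array. By limma's one-sided test against negative controls, here the 95th percentile of those spots on each array, its adjusted p was 0.999.

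In the steps from glucose 6-phosphate to triose phosphate, 6 of 7 genes were detected. The isomerase Gpi read 6.65, 6.38, 6.40 and 6.27 (6.42 ± 0.16, n = 4), and the platelet-type phosphofructokinase Pfkp read 6.87, 6.34, 6.47 and 6.28 (6.49 ± 0.27, n = 4). The liver-type phosphofructokinase Pfkl read 0.89, -0.14, 0.61 and 0.72 (0.52 ± 0.45, n = 4). Both phosphofructokinases were highest on replicate 1, while for Pfkl replicate 2 was the array farthest from the rest. The muscle form Pfkm was well above background on no array, with signals of 1.96, 2.25, 3.80 and 6.34 from 1 spot.

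Aldolase cleaves the fructose bisphosphate that phosphofructokinase makes. The main form Aldoa read 7.16, 7.28, 7.11 and 6.86 (7.10 ± 0.18, n = 4). The brain form Aldoc was detected near the limit, at -2.28, -1.86, -1.50 and -1.96 (-1.90 ± 0.32, n = 4), and on replicate 1 only 7 of its 10 spots were well above background. Triose phosphate isomerase, Tpi1, read 4.09, 3.90, 4.06 and 3.82 (3.97 ± 0.13, n = 4), with no array apart from the rest.

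The bifunctional enzymes Pfkfb3 and Pfkfb4 make and break fructose 2,6-bisphosphate, the strongest activator of phosphofructokinase, and Pfkfb3 is the form known to be induced in activated macrophages. Pfkfb3 read 2.50, 2.83, 2.67 and 2.51 (2.63 ± 0.16, n = 4) on 1 of its 2 probes, and the other probe was well above background on 3 arrays, all but replicate 1. Without replicate 1 that probe enters too and the mean level of Pfkfb3 becomes 0.10. Pfkfb4 was detected by both of its probes, with a mean of -0.49 ± 0.13 (n = 4). The probes moved in opposite directions. Relative to the mean of the other arrays, replicate 1 was lower by 0.31 on one and higher by 0.28 on the other. Single-probe SDs for Pfkfb4 were 0.24 and 0.48, at mean levels of 1.19 and -2.17. The lower probe, on 1 spot, had signals between 15.7 and 40.1, near background, so the Pfkfb4 average depends on which probes enter it.

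All 6 genes of the energy-yielding steps from glyceraldehyde phosphate to pyruvate were detected, with SDs between arrays of 0.06 to 0.12 apart from Eno2 and Pkm. Gapdh read 8.05, 7.996, 8.02 and 7.91 (7.99 ± 0.06, n = 4), an SD below that of all but 3.06% of detected genes. Phosphoglycerate kinase, Pgk1, read 8.05, 8.22, 8.24 and 8.05 (8.14 ± 0.10, n = 4), and the mutase Pgam1 read 6.33, 6.26, 6.47 and 6.33 (6.35 ± 0.09, n = 4). For Pgam1, measured on 10 spots, the SD between arrays was 0.090, which was 2.96 times the mean standard error of 0.030 that the spots of 1 array give. The widespread enolase Eno1 read 6.89, 6.98, 6.81 and 6.71 (6.85 ± 0.12, n = 4).

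Eno2, the enolase named for neurons, was detected by both of its probes and read 1.54, 2.09, 2.08 and 1.91 (1.90 ± 0.26, n = 4). Pyruvate kinase, Pkm, which makes the pyruvate at the end of the pathway, read 4.26, 4.87, 4.76 and 4.81 (4.67 ± 0.28, n = 4). Replicate 1 lay below the mean of the other arrays on both Eno2 probes and on all 4 Pkm probes. The drop differed among the Pkm probes, from 0.19 on a probe of 10 spots to 0.998 on a probe of 1 spot. That last probe had a mean level of -0.56, against 5.75 to 6.99 for the other probes of the same accession, so the Pkm average depends on which probes enter it.

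The steadiness of Gapdh, a common reference transcript, was a property of the average over 8 probes. Its single probes had SDs from 0.083 to 0.42, and 3 of them lay lower on replicate 1 than on the mean of the other arrays while 5 lay higher. A pair of Gapdh probes read 8.63 and 8.45 on replicate 1 and 8.38 and 8.34 on replicate 2, but 9.05 and 8.99 on replicate 3 and 8.95 and 8.99 on replicate 4. Another read 8.02 on replicates 1 and 2, 7.63 on replicate 3 and 7.12 on replicate 4, the opposite direction. That probe has 1 spot, at row 228 and column 75. The spot shares columns with the dim area described below but lies outside it and its margin. Whether the dimness reached this spot was not tested. Processed pseudogenes are frequent for these enzymes. The RefSeq table lists 81 loci named as Gapdh pseudogenes, 31 for Eno1, 30 for Ldha, 19 for Pkm, 13 for Pgam1, 9 for Aldoa, 8 for Pgk1 and 3 for Tpi1, and whether the probes also bind such copies was not tested.

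**Figure D2:**
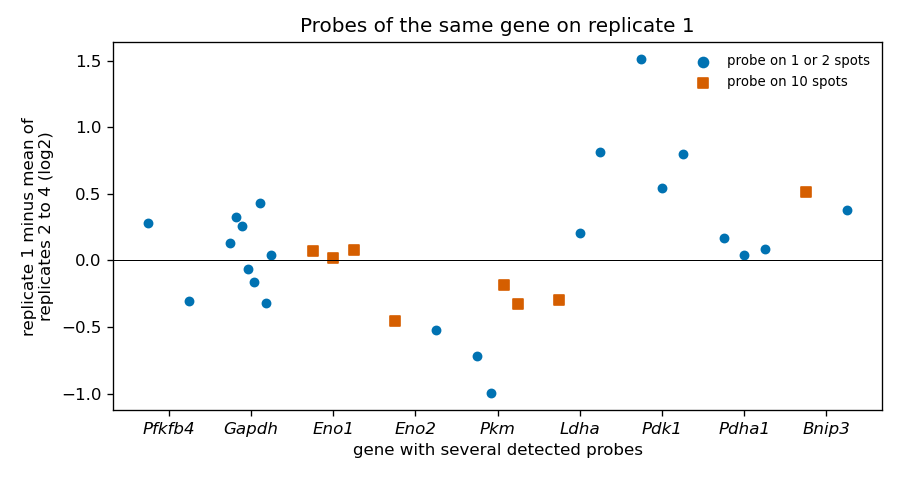
Difference between replicate 1 and the mean of replicates 2 to 4 (log2, vertical axis) for each detected probe of the 9 genes with several detected probes. Points are single probes, and squares mark probes printed on 10 spots. All Pkm and Eno2 probes lie below 0 and all Pdk1 and Bnip3 probes above it, while the probes of Pfkfb4, Gapdh and Ldha lie on both sides.

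Pyruvate and lactate are exchanged by lactate dehydrogenase and leave or enter cells through monocarboxylate transporters. Ldha, the subunit that favours lactate production, read 8.29, 8.15, 8.06 and 7.92 (8.10 ± 0.15, n = 4), and its promoter is the second printed above. Its 3 probes did not move together, since replicate 1 was lower by 0.30 than the mean of the others on the probe of 10 spots and higher by 0.82 on a probe of 1 spot. Ldhb, the subunit of tissues that burn lactate, read 5.82, 5.19, 5.24 and 4.99 (5.31 ± 0.35, n = 4). For Ldhb replicate 1 stood 0.68 above the mean of the others, and the SD between arrays was 12.9 times the mean standard error of its 10 spots.

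The transporter Slc16a1 (MCT1) read 0.64, 0.24, 0.43 and 0.44 (0.44 ± 0.16, n = 4). Slc16a3 (MCT4), the low-affinity transporter that exports lactate from glycolytic cells and a HIF-1 target, was not detected. Of its 10 spots, 1 was well above background on replicate 1, 1 on replicate 2, 3 of the 9 spots kept on replicate 3 and 3 of 9 on replicate 4. Spots of this probe differed more than those of any other gene of the list printed on 10 spots, with a mean SD of 0.63 between spots of an array. By limma's test the probe was above the 95th percentile of the negative controls by 0.29 on the log2 scale (adjusted p = 0.0126).

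Entry of pyruvate into the citric acid cycle is set by pyruvate dehydrogenase and the kinases that switch it off. Pdk1, the kinase raised by HIF-1, read 1.35, 0.49, 0.45 and 0.25 (0.64 ± 0.49, n = 4). Replicate 1 lay 0.95 above the mean of the others, and all 3 detected Pdk1 probes were higher there, by 0.54 to 1.51. The remaining Pdk1 probe was well above background on 3 arrays, all but replicate 1, and without that replicate it enters and the mean level becomes -0.28. Pdk3 read 0.83, 0.61, 1.01 and 0.87 (0.83 ± 0.16, n = 4), and Pdha1, the catalytic subunit that these kinases phosphorylate, read 1.64, 1.86, 1.499 and 1.27 (1.57 ± 0.25, n = 4). Neither had replicate 1 outside the range of the other arrays.

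Of the oxygen-sensing genes, Hif1a and Vhl were detected. Hif1a, which encodes HIF-1α, read 2.03, 2.78, 2.69 and 2.60 (2.53 ± 0.34, n = 4) on 1 of its 2 probes, with replicate 1 lower by 0.66 than the mean of the others. The second Hif1a probe read -2.80, -2.45, -1.99 and -1.71 and was well above background on all arrays but replicate 1. Without replicate 1 both probes count as detected and the mean level of Hif1a becomes 0.32. Vhl, the subunit that recognises hydroxylated HIF-1α for destruction, read 3.46, 3.72, 3.81 and 3.73 (3.68 ± 0.15, n = 4). For both genes replicate 1 was the lowest array.

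Epas1, which encodes the related subunit HIF-2α known in endothelium and in some macrophages, was well above background on no array, with signals of 2.77, 4.59, 2.72 and 3.25 from 1 spot (limma adjusted p = 0.859 against negative controls). Egln3, a prolyl hydroxylase that is itself a HIF target, was below the call as well. Its 2 spots gave mean signals of 4.07, 8.69, 17.1 and 22.1, and they were both well above background on replicate 4 only.

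Among hypoxia targets, 4 of 6 were detected. Bnip3 and Bnip3l encode mitophagy receptors of the outer mitochondrial membrane, and they went opposite ways on replicate 1. Bnip3 read 1.83, 1.30, 1.46 and 1.40 (1.497 ± 0.23, n = 4), 0.45 higher on replicate 1 than on average elsewhere, and both of its probes moved that way. Bnip3l read 3.81, 4.22, 4.31 and 4.42 (4.19 ± 0.26, n = 4), lower by 0.50.

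P4ha1, a collagen prolyl hydroxylase, read 1.82, 1.81, 1.68 and 1.59 (1.72 ± 0.11, n = 4). Ankrd37, a small ankyrin-repeat protein and a direct HIF-1 target, read -0.27, 1.03, 0.89 and 0.93 (0.65 ± 0.61, n = 4). It had the largest SD of the 29 detected genes, and nearly all of it came from replicate 1, since the other arrays spanned only 0.14. Like Slc2a1, Hk2 and Hif1a, it was measured on 1 spot per array by the probe that was detected.

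Vegfa, the growth factor that recruits blood vessels, was well above background on no array with any of its 3 probes, whose signals lay between 2.05 and 6.93. Limma gave adjusted p-values of 0.593 to 0.999 for those probes against negative controls. Car9, the extracellular carbonic anhydrase used as a marker of hypoxic cells, gave signals of 13.5, 21.5, 17.8 and 33.4 and was well above background on all arrays but replicate 1. 

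The count of 29 depended little on the call. With outlier spots kept or the dim area described below left out it stayed at 29, where the shares of all named genes were 53.1% and 53.3%. It was 32 with the software's positive-and-significant flag (66.9% of all named genes) and with limma against negative controls (66.7%), and both calls added Car9, Egln3 and Slc16a3. Detection on at least 3 arrays gave 30 genes (57.3% of all named genes) with Car9 added, and letting the first probe decide gave 28 (50.5%) with Pdk1 lost. Without replicate 1 it was 30 (56.2%), again with Car9, and without replicate 2, 3 or 4 it was 29 each time (53.9%, 53.3% and 53.3%).

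**Figure D3:**
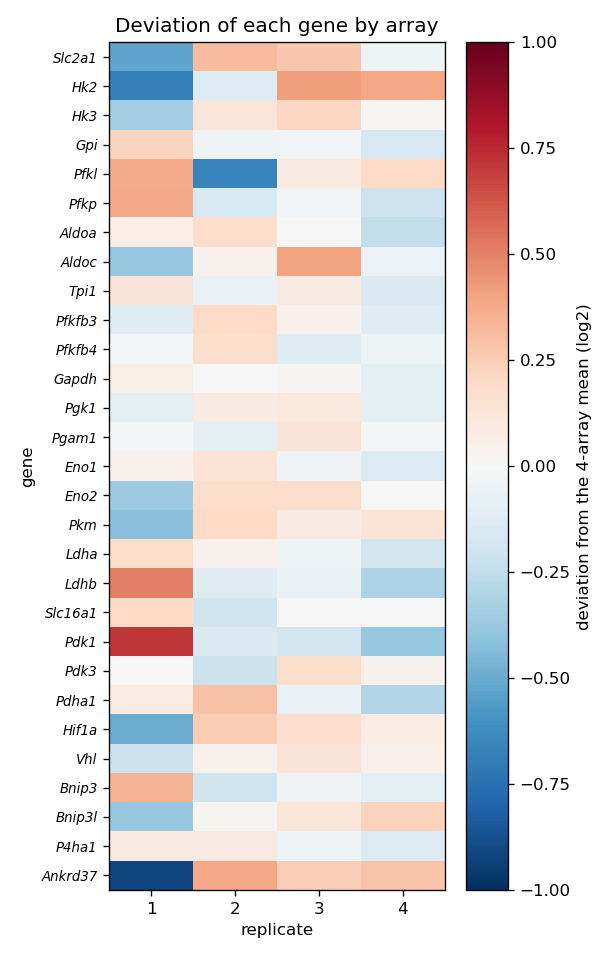
Deviation of each detected gene from its mean over the 4 arrays (colour, log2), with replicates 1 to 4 as columns. Red is above and blue below the mean. Replicate 1 holds the strongest colours in both directions, down to Ankrd37 at -0.92 and up to Pdk1 at 0.71.

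Across the 29 detected genes replicate 1 was the lowest array for 12 and the highest for 11. Over all 8772 detected genes these shares were 32.8% and 42.3%, against 41.4% and 37.9% here. The split depended on scaling. With the percentile over detected probes 13 genes (44.8%) were lowest and 8 (27.6%) highest on replicate 1, against 39.7% and 34.8% of all detected genes. With quantile normalization 14 (48.3%) were lowest and 7 (24.1%) highest, against 36.6% and 38.7%. Normexp gave 16 (55.2%) and 9 (31.0%), against 35.4% and 39.5%. The share lowest on replicate 1 was thus above that of all detected genes under each of these scalings, by an amount that varied. With outlier spots kept or the dim area described below left out, the share came closer to that of all detected genes. It was then 10 genes (34.5%) each time, against 32.6% and 32.1%. The difference was not tested. By Dixon's ratio 1 of the 29 genes, Ankrd37, had an array apart from the rest, against 8.41% of all detected genes. The median deviation of the list on replicates 1 to 4 was -0.01, 0.04, 0.08 and -0.06, and over all detected genes it was 0.05, 0.00, 0.02 and -0.05. Genes of neighbouring steps were found on both sides. Slc2a1, Hk2 and Hk3 were lowest on replicate 1 together with Aldoc, Pfkfb3, Pgk1, Eno2, Pkm, Hif1a, Vhl, Bnip3l and Ankrd37. Gpi, Pfkl, Pfkp, Tpi1, Gapdh, Ldha, Ldhb, Slc16a1, Pdk1, Bnip3 and P4ha1 were highest there. Replicate 1 was also the dimmest array and had the lowest share of spots above background, and the part of brightness in these differences was not tested.

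With the scaling used here the median spread between replicates was close to that of all detected genes, which were not matched for level. The median SD of the 29 genes was 0.23, and 0.24 over all detected genes, and without replicate 1 the values were 0.11 and 0.15. These medians were 0.19 and 0.24 with the percentile over detected probes, and 0.22 and 0.20 with normexp. Of 4 groups of 2193 detected genes split by level, the highest held 15 of the 29 genes. Its median SD was 0.19, against 0.30 in the lowest group. In the list the median SD was 0.18 for glucose, lactate and pyruvate handling and 0.25 for oxygen sensing and hypoxia targets. Relative to the error that the scanner software assigned to the spots, the median SD was 1.93 times as large in the list and 1.73 times over all detected genes. For 11 detected probes of 8 genes printed on 10 spots, the median SD between arrays was 0.19, and the median standard error that the spots of 1 array give was 0.040. The SD between arrays was larger than that error for 10 of the 11 probes, with a median ratio of 3.24, and the exception was a probe of Eno1 at 0.91.

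**Figure D4:**
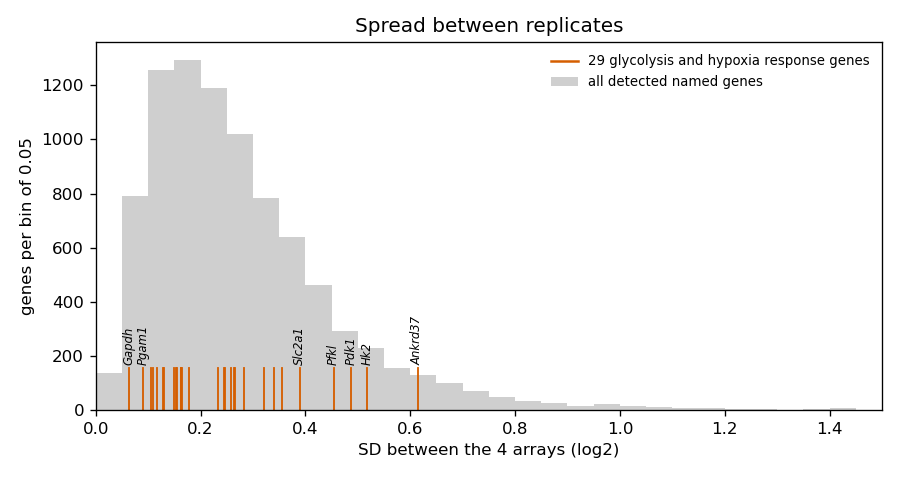
SD between the 4 arrays (log2, horizontal axis) of all 8772 detected genes as grey bars (genes per bin), with the 29 genes of glycolysis and the hypoxia response as orange ticks. The ticks run from Gapdh at 0.06 to Ankrd37 at 0.61 and cover the bulk of the grey distribution.

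A dim area of the array surface, rows 166 to 216 and columns 73 to 88, touched the list in 1 spot. The area was drawn around the 77 detected probes that read more than 2 log2 units lower on replicate 4 than on the mean of the other arrays. The 174 detected single-spot probes inside it lay at a median of -0.84 on replicate 3 and -2.11 on replicate 4 relative to replicates 1 and 2. The value on replicate 4 was partly set by that choice. The spot of the list belonged to a 10-spot probe of Eno1. It read -0.71 on replicate 3 and -2.04 on replicate 4 relative to the other spots of that probe. Within 5 rows or columns of the area lay 1 spot each of Ldhb (-0.43 and -1.51) and Bnip3 (-0.44 and -0.61) on the same arrays, and 1 spot of Slc2a3, a probe below background. The software had marked the Eno1 and Ldhb spots as outliers on both arrays and the Bnip3 spot on replicate 4, so those values did not enter the levels. The spots of Hif1a lay outside the area and its margin. So did the Gapdh spot at row 228 and column 75, whose level was lower on replicates 3 and 4.

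Genes around the pathway were described by lists of 72 further genes, 68 of them measured. All 7 measured genes of pyruvate dehydrogenase and the pyruvate carrier were detected, with Pdhb at 2.32 ± 0.13, Dlat at 1.38 ± 0.12 and Dld at 2.50 ± 0.39. All 12 genes of the citric acid cycle were detected, with Cs at 4.76 ± 0.17 and Idh3a at 1.98 ± 0.13. The pentose phosphate pathway, which draws on glucose 6-phosphate to make NADPH, had 7 of 7, with Pgls at 5.56 ± 0.14 and Pgd at 4.19 ± 0.67. All 7 pentose phosphate genes were highest on replicate 1, where 42.3% of all detected genes were.

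Other isoenzymes were detected less completely, with 6 of 16. Among them were the fructose transporter Slc2a5 at 0.19 ± 0.28, Pfkfb1 at 2.86 ± 0.67 and Pfkfb2 at -0.55 ± 0.30, while the transporters Slc2a2 of liver and Slc2a4 of muscle and fat were well above background on no array. Partners and regulators of HIF had 6 of 8, with the dimer partner Arnt at 0.03 ± 0.14, Arnt2 at 0.32 ± 0.45 and the prolyl hydroxylase Egln2 at 1.79 ± 0.14. Further hypoxia targets had 14 of 18, with adrenomedullin, Adm, at -0.66 ± 0.21, Ndrg1 at 2.35 ± 0.20 and the oxidoreductase Ero1a at 2.81 ± 0.13, and with Stc2 above background on no array.

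**Figure D5:**
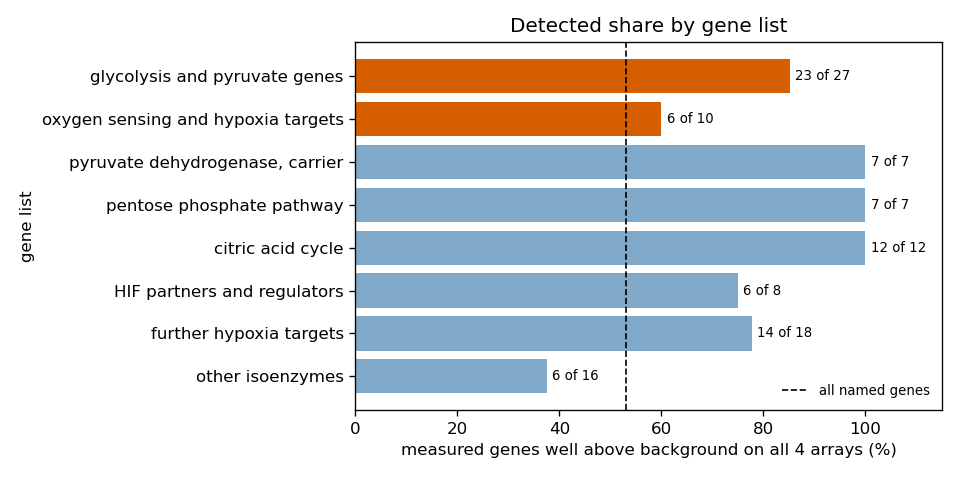
Share of measured genes that were well above background on all 4 arrays (percent, horizontal axis) for the 2 parts of the list (orange) and 6 lists of neighbouring genes (blue), with counts beside the bars. The dashed line is the share of all named genes, 53.1%. The citric acid cycle, pentose phosphate and pyruvate dehydrogenase lists reach 100%, and the other isoenzymes lie below the line.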

How the data were processed

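Total RNA (100 ng, integrity number above 7.5) was labelled with Cy3 and hybridised to 1 array per replicate, per the labels' protocols. Per the submitters' processing notes, Agilent Feature Extraction 11.0.1.1 read the scans. The deposited values are 1-colour spot intensity values on a linear scale with 0 or 1 flags, per the file headers, and were not scaled between arrays. Of 62976 spots, 4259 controls and spots marked as outliers (440 to 1206 per array) were left out, and no spot was saturated. Spots were averaged per probe as log2 processed signal, the 75th percentile of each array's probes (controls excluded) was subtracted, and a gene's level is the mean of its detected probes. Accessions named 21109 probes through RefSeq (GRCr8, names only), and 24489 stayed unnamed.

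With 1 group no contrast was tested, and all arrays carry the same slide number. Detection against negative controls used limma 3.58.1 (R 4.3.3) and was tested on simulated data. It asked whether a probe lay above the 95th percentile of each array's negative control spots. The test was one-sided and Benjamini-Hochberg adjusted over all probes. Other steps used Python 3.11.15 and matplotlib 3.10.9. Alternatives were other detection calls, normalizations, probe summaries, outlier handling, the dim area left out and each replicate left out. Normexp used median signals, because no mean foreground column was present, and an offset of 50. All genes of the list are named. In the neighbouring lists the first 3 detected and the first 2 detected on no array are named, except some that are not reported here, and so are those with an array apart by Dixon's ratio. The genes and lists were chosen with earlier results of these data known.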

Additional observations from a re-analysis of the deposited data

Results flagged for a closer look

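Ankrd37 read -0.27 on replicate 1, so far below the other 3 arrays (0.89 to 1.03) that the gap took up more of the range than Dixon's critical value allows for 4 samples. Of the 52 detected neighbouring genes 5 passed as well, 3 low and 2 high. Pfkfb1 read 3.86 on replicate 1, high against 2.47 to 2.60 elsewhere, and the pyruvate dehydrogenase kinase Pdk2 read 3.33 there, high against 1.99 to 2.09. The histone demethylase Kdm3a, a HIF-1 target, read -0.32 on replicate 1, low against 0.41 to 0.56, and the heme-degrading enzyme Hmox1 read 5.83 there, low against 7.19 to 7.33. Ndrg1 read 2.05 on replicate 4, low against 2.40 to 2.47. By chance about 1 in 20 groups passes, and 8.41% of all detected genes did, 3.32% with a low replicate 1. Of the 29 genes of glycolysis and the hypoxia response 1 passed.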

How the results depend on the processing

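No paired analysis was possible because there is only 1 group. The count of detected genes was 28 to 32 under the calls and the spot handling tried (it was not recomputed under other normalizations) and 29 to 30 with a replicate left out. The median level of the detected genes, 3.68, was 0.59 when the percentile was taken over detected probes, which moves the zero point of every array. It was 3.27 with normexp, which adds an offset of 50 to every signal before log2. The part of that offset in the shift was not tested. With 1 replicate left out the median level was between 2.89 and 3.67, lowest without replicate 1. The median SD of 0.23 was between 0.19 and 0.25 under other normalizations and probe summaries, and 0.11 without replicate 1. Of the 29 single-gene levels, 29 moved beyond their SD with the percentile over detected probes, 24 with normexp, 9 when the first detected probe was used, 5 with the median of probes, 3 with all probes and 3 without replicate 1 (Hif1a, Pfkfb3 and Pdk1, for which a further probe then counts as detected), and 0 with quantile normalization, outlier spots kept, the dim area left out or another replicate left out. Signal near background limits Aldoc, Car9, Egln3, Slc16a3 and the lower of the Pfkfb4 probes.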
